A study of Mus musculus with 6 samples.

Results

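Genes of the actin and myosin contractile apparatus and its focal contacts were examined in RNA from fibroblasts cultured from mouse embryos. Members were all loci whose gene symbol named a myosin heavy chain (Myh), a myosin light chain (Myl), a tropomyosin (Tpm), an alpha-actinin (Actn), a calponin (Cnn), a muscle or cytoplasmic actin, a transgelin (Tagln), a talin (Tln) or a filamin (Fln). Vcl, Smtn, Cald1, Lmod1, Mylk, Zyx and Pxn were added by name. This rule found 55 loci among 52006 loci with a gene name and 53323 loci in all. The rule itself uses symbols and no measured value, but it was set with earlier results of these data known. Of the 55 loci, 39 had enough fragments to be tested, 11 had too few and 5 were at 0 in all 6 libraries. One of these 5 was a second, empty locus named Myh9, and Acta1 was not analysed here. Myl6 and its neighbour Myl6b shared 1 locus, and the Actg1 locus also carried the names of a small RNA and a miRNA.

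The groups were 3 libraries of wild-type cells (WT) and 3 libraries of cells with a knockout of Fbxw7 (Fbxw7 KO), both grown in DMEM with serum and non-essential amino acids. Fbxw7 encodes the substrate-binding subunit of an SCF ubiquitin ligase. How the knockout was made, which exons it removed, the strain, the embryonic age and the number of embryos or clones are not stated in the labels. These do not tie the 3 libraries of each genotype to separate cultures, so p-values measure only the spread between these libraries, which may be technical.

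Nonmuscle myosin II is a hexamer of heavy chains, regulatory light chains and essential light chains that pulls on actin filaments. Phosphorylation of the regulatory light chain by myosin light chain kinase or by ROCK switches it on, and myosin phosphatase switches it off. Tropomyosins, caldesmon, calponins and transgelins lie along the filament, alpha-actinins and filamins crosslink it, and talin, vinculin, zyxin and paxillin join its ends to integrins at focal contacts. In fibroblasts these bundles are stress fibers, and many of the genes are textbook targets of serum response factor (SRF), which binds the CArG box, and of its actin-sensing cofactors, the MRTFs.

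The CArG box was therefore looked for in RefSeq promoter windows (build GRCm38.p6) that ran from 250 bases before to 50 bases after each transcription start. The box is CC, then 6 bases that are each A or T, then GG, and it reads the same way on either strand. Among members with a window, 10 of 47 (21.3%) held a match, against 488 of 27025 genes (1.81%) with a window. The 10 include Actc1, Myh4, Myh13, Myl3 and Myl7, which were at or near 0 in these libraries, and the match of Myh13 lies after the start. The windows of Acta2 and Cnn1 held no match, and Tagln and Actb had no window. The 12 members that were lower in Fbxw7 KO held 2 matches (16.7%), and the 19 other members of at least 10 CPM with a window held 3 (15.8%). A match is a description of the letters and not a measured binding site. The 4 stretches below lie before the start of members that are expressed in these cells, and the capitals mark the match. Myl6, also expressed and not called, holds a match whose first letter lies 50 bases before a start, and its stretch is not printed. Cnn2 and Vcl were lower in Fbxw7 KO, whereas Myl9 and Actg1 did not pass the test.
Cnn2, chr10:79988499-79988583, plus strand: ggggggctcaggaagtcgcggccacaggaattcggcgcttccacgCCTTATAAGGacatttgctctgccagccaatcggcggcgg
Vcl, chr14:20929148-20929210, plus strand: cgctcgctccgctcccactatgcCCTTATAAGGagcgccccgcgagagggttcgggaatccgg
Myl9, chr2:156775258-156775342, plus strand: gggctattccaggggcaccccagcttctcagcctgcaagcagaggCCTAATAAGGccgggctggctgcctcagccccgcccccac
Actg1, chr11:120348546-120348630, minus strand: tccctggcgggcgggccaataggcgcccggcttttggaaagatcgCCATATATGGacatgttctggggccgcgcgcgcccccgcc
The first letter of the match lies 56 bases before the start in Cnn2, 227 in Vcl, 161 in Myl9 and 90 in Actg1. Cnn2 and Vcl hold the same 10 letters.

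The libraries held 55720129 to 64198455 estimated fragments. The median squared difference between replicates 1 and 2 was 6.46 (WT) and 5.84 (Fbxw7 KO) times that given by sampling noise alone. Between these replicates and replicate 3 it was 22.2 to 34.2 times, so replicate 3 stood apart in both genotypes. Fbxw7 was at 29.5, 28.4 and 30.1 CPM in WT and at 27.6, 27.4 and 24.1 CPM in Fbxw7 KO (adjusted p = 0.332), which does not check the labels as the deleted part is not known. All 12 fibroblast markers were above 1 CPM, while Epcam, Ptprc, Pecam1 and Cdh5 stayed below 0.2 CPM in every library. Some markers of other cell types were detected, such as Cd14 at 4.42 to 7.58 CPM in all libraries and Kdr and Tek at up to 8.19 and 2.57 CPM in WT. Of 5 sex-linked transcripts, Xist was at 0.213 to 2.17 CPM in WT and at 798 to 1046 CPM in Fbxw7 KO. The 4 Y-linked genes were lower in Fbxw7 KO but were detected in each of its libraries beside Xist. Their Fbxw7 KO means were 31.7% (Ddx3y), 36.3% (Uty), 44.0% (Eif2s3y) and 50.9% (Kdm5d) of the WT means. These levels moved with genotype in all 6 libraries, so differences linked to sex and to the knockout cannot be told apart in the results below.

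Contractile transcripts were lower in Fbxw7 KO or did not pass the test, and none was called higher. CPM is the share of a library's TMM-scaled total of estimated fragments that falls on a locus, on the usual scale of that unit. A member was called when its p-value from the quasi-likelihood test of edgeR, adjusted by Benjamini-Hochberg over all 16787 tested loci, was below 0.05. Of 39 tested members, 12 were lower, against 8.08% of all tested loci, and 0 were higher, against 8.03%. Of the 12, Myh1 and Myh2 entered the test through WT alone and had to differ, and without them 10 of 37 were lower. At an unadjusted p below 0.05 in either direction there were 21 of 39 members, against 31.6% of all tested loci. Of these, Pxn and Tagln3 had a log2 fold change above 0. The Wald test of DESeq2 called 17 lower and 0 higher, where 11.3% of all loci were lower. With limma on log2(FPKM + 1) there were 10 lower and 0 higher, where 7.39% of all loci were lower. The log2 fold change (Fbxw7 KO over WT) was below 0 for 34 of 39 members, with a median of -0.52, where the median of all tested loci was 0.0075. All 3 Fbxw7 KO libraries lay below all 3 WT libraries for 17 members, against 18.4% of all tested loci. The counts of 21 and 34 and each count of 17 include Myh1 and Myh2, for which the outcome was fixed by their entry through WT.

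The count of 12 depended on the libraries. Without Fbxw7 KO replicate 1, or without Fbxw7 KO replicate 2, it was 5, with Actn1, Cald1, Lmod1, Myl4, Mylk, Vcl and Zyx lost each time. The 5 that stayed were Cnn2, Myh10, Smtn and the pair Myh1 and Myh2, whose outcome was fixed by their entry through WT. The share of all loci called lower was then 3.27% and 4.35%. When the first and second replicates were added together within each genotype, 3 members were called, Myh10 and the pair Myh1 and Myh2, where 1.13% of all loci were lower. Without replicate 3 of both genotypes, 23 members were lower and 5 higher, where 20.6% of all loci were lower and 20.7% higher. The 23 also include Myh1 and Myh2. Without WT replicate 3 alone, Actg2, Pxn, Tagln2 and Tagln3 were called higher, where 9.37% of all loci were.

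**Figure D1:**
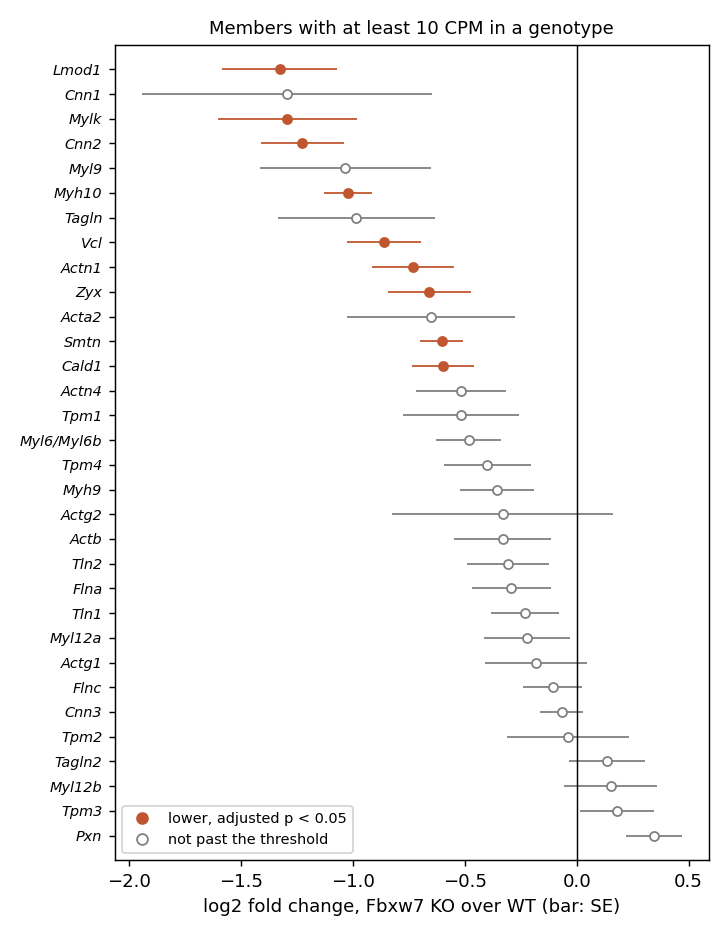
Log2 fold change of Fbxw7 KO over WT on the x axis, with SE bars, for 32 member loci with a mean of at least 10 CPM in a genotype. Filled points are the 9 members called lower, and 28 of the 32 points lie left of 0.

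The myosin heavy chains came first in the motor. Myh10, nonmuscle myosin IIB (chr11:68691559-68816632), was at 906, 944 and 1084 CPM in WT. It was at 477, 478 and 489 CPM in Fbxw7 KO, which is 49.3% of the WT mean. The groups were far apart and each was tight. Its log2 fold change was -1.02 ± 0.108 (SE), with an adjusted p of 0.00117, and it remained called in every alternative that was run. Myh9, nonmuscle myosin IIA, was the more abundant chain at 2919, 3133 and 3953 CPM in WT, against 2777, 2855 and 2174 CPM in Fbxw7 KO. Its groups did not overlap either, but the distance from WT replicate 1 to Fbxw7 KO replicate 2 was small, and its log2 fold change of -0.36 ± 0.165 did not pass (adjusted p = 0.183).

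The share of each nonmuscle chain in their sum was also computed for each library. On the FPKM scale, which divides by transcript length and so allows genes to be compared, Myh10 made up 22.8%, 22.2% and 20.7% of the summed nonmuscle heavy chains in WT. In Fbxw7 KO its share was 14.0%, 13.7% and 17.5%. Every Fbxw7 KO library lay below every WT library, with Fbxw7 KO replicate 3 the nearest to WT. Myh14, the third nonmuscle chain, had 29 estimated fragments (rounded) in all WT libraries together and 0 in Fbxw7 KO, and it was not tested.

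Sarcomeric heavy chains, the myosins of striated muscle, were at or near 0. Myh1 (chr11:67200052-67224575) had 126, 136 and 72 estimated fragments (rounded) in the WT libraries and 0 in each Fbxw7 KO library. Myh2 (chr11:67171027-67197517) had 34, 49 and 54 estimated fragments in WT and again 0 in Fbxw7 KO. Against a floor of 3 fragments over the whole Fbxw7 KO group, Myh1 was at least 109-fold lower and Myh2 at least 44.5-fold lower. Both are neighbours of similar sequence in 1 myosin cluster, so their fragments may have been divided between them by estimate. They reached only 2.26 and 0.883 CPM in WT, and as they entered the test through the WT libraries alone, no p-value is given. The other sarcomeric members held at most 10.7 estimated fragments in a genotype. The skeletal muscle regulators Myod1, Myf5, Myf6 and Mymk were at 0 in all libraries. The summed level of 15 skeletal muscle markers was 3.68 to 4.20 CPM in WT, against 2.69 to 4.42 CPM in Fbxw7 KO. Of these markers 5 were tested and 1, Neb, was lower, against 8.08% of all tested loci. Myh11, the smooth muscle heavy chain, was at 1.34, 1.56 and 4.92 CPM in WT, against 0.995, 0.74 and 1.28 CPM in Fbxw7 KO (adjusted p = 0.113).

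The light chains are given after the kinase that acts on them. Mylk, myosin light chain kinase (chr16:34745210-35002420), was at 23, 26.8 and 11.2 CPM in WT. Its Fbxw7 KO libraries were at 7.12, 7.62 and 10.2 CPM. WT replicate 3 and Fbxw7 KO replicate 3 nearly met, so the fold rests on replicates 1 and 2. The log2 fold change was -1.29 ± 0.311 (adjusted p = 0.0289), and -1.76 without replicate 3 of both genotypes. Fbxw7 KO replicates 1 and 2 held 29.6% of the mean of WT replicates 1 and 2, while Fbxw7 KO replicate 3 held 90.4% of WT replicate 3.

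Myl9, the regulatory light chain typical of smooth muscle and stress fibers, was at 147, 139 and 275 CPM in WT. In Fbxw7 KO it was at 59.6, 69.9 and 144 CPM. Within each genotype replicate 3 was about as far from the others as the genotypes were from each other, and the groups overlapped. The log2 fold change was -1.03 ± 0.383, which did not pass (adjusted p = 0.109). Myl12a had 329 ± 71.7 CPM in WT, against 282 ± 57.3 CPM in Fbxw7 KO (SD, n = 3), and Myl12b had 39.8 ± 11.6 and 44.2 ± 3.54 CPM, with overlapping groups and no call. Myl9 held 30.7%, 32.0% and 42.45% of the summed regulatory light chain FPKM in WT, and 18.8%, 19.8% and 30.0% in Fbxw7 KO.

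The essential light chain locus Myl6/Myl6b was at 107, 88.2 and 124 CPM in WT, against 74.1, 68.9 and 85.9 CPM in Fbxw7 KO. These groups did not overlap, and the adjusted p of 0.0595 lay just above the threshold. In addition, 5 near-identical pseudogene loci held 48.0% of the fragments of Myl6 and its copies together, which makes its level uncertain. With the copies added, the log2 fold change was -0.53 and the adjusted p 0.11. Myl4, an atrial and embryonic light chain, was lower at a very low level (chr11:104550663-104595753). It was at 2.02, 1.64 and 1.86 CPM in WT, against 0.875, 1.13 and 0.99 CPM in Fbxw7 KO, a log2 fold change of -0.88 ± 0.212 (adjusted p = 0.0287). The cardiac and skeletal light chains Myl1, Myl2, Myl3, Myl7 and Myl10 had at most 13.1 estimated fragments in a genotype.

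All 3 thin filament regulators were lower. Cald1, caldesmon, which holds tropomyosin on the filament (chr6:34598500-34775473), was at 2681, 2542 and 3300.3 CPM in WT. In Fbxw7 KO it was at 1866, 1743 and 2023 CPM, 66.1% of the WT mean, with groups that did not overlap. Its log2 fold change was -0.60 ± 0.137 (adjusted p = 0.0247).

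Lmod1, leiomodin, a filament nucleator of smooth muscle (chr1:135324807-135368065), was at 91.3, 89.5 and 171 CPM in WT. The Fbxw7 KO libraries were at 41.3, 44.7 and 54.3 CPM, all below the WT libraries, and WT replicate 3 was far above its group. The log2 fold change was -1.33 ± 0.258 (adjusted p = 0.0136). Smtn, smoothelin, an actin-binding protein of contractile smooth muscle (chr11:3517523-3540612), was at 45.3, 49.9 and 48.6 CPM in WT, against 30.4, 34.2 and 29.9 CPM in Fbxw7 KO. Here replicate 3 lay with the others in both genotypes, and the log2 fold change was -0.60 ± 0.0966 (adjusted p = 0.00627).

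**Figure D2:**
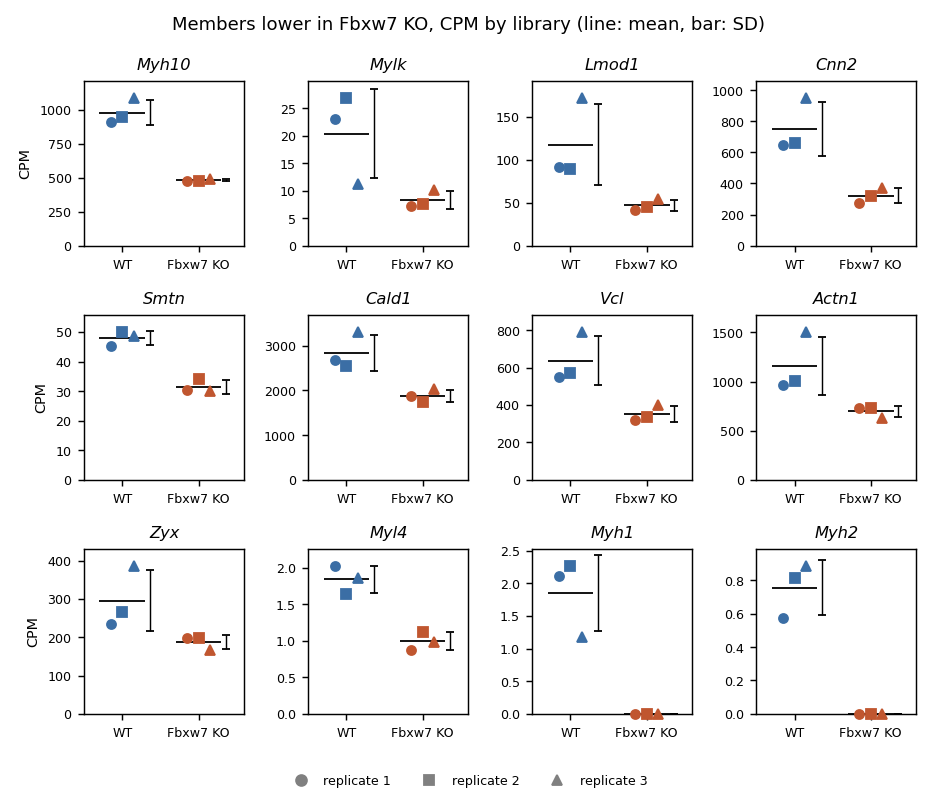
CPM of the 12 members called lower in Fbxw7 KO, each point a library and each marker shape a replicate number, with the mean as a line and the SD as a bar. The Fbxw7 KO libraries lie below the WT libraries in each panel, and come nearest to them, relative to the level, in Mylk, where WT replicate 3 was at 11.2 and Fbxw7 KO replicate 3 at 10.2 CPM.

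Smooth muscle markers were counted beside these genes, since Lmod1, Smtn, Cnn1, Acta2, Actg2 and Myh11 are also markers of that cell type. Of 13 such markers 10 were tested, 3 were lower (Lmod1, Smtn and Synpo2) and 0 higher, against 8.08% and 8.03% of all tested loci. Lmod1 and Smtn are already counted among the members called lower, and Synpo2 is counted again among the SRF targets below. The summed level of the 13 markers ranged from 1797 to 3790 CPM in WT and from 1149 to 2276 CPM in Fbxw7 KO. Most of it was Acta2. Myocd, the smooth muscle cofactor of SRF, was at 0.083 to 0.343 CPM in WT and at 0 to 0.103 CPM in Fbxw7 KO, and Des was at most 0.245 CPM. In such bulk RNA, fewer cells of a type and less RNA per cell cannot be told apart.

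Of the 3 calponins, which bind actin and slow myosin, 1 was lower. Cnn2, the nonmuscle calponin (chr10:79988584-79996062), was at 645, 658 and 948 CPM in WT. It was at 274, 319 and 371 CPM in Fbxw7 KO, 42.8% of the WT mean. The highest Fbxw7 KO library lay far below the lowest WT library. This was a log2 fold change of -1.23 ± 0.185 (adjusted p = 0.00501). Cnn3, the acidic calponin, had 259 ± 19.5 CPM in WT, against 247 ± 12.4 CPM in Fbxw7 KO (adjusted p = 0.683). Cnn1, the smooth muscle calponin, was at 27.4, 25 and 100.2 CPM in WT, against 12.2, 11.9 and 38.1 CPM in Fbxw7 KO. Its replicate 3 was 3.82 times the mean of the others in WT and 3.15 times in Fbxw7 KO, and the log2 fold change of -1.29 ± 0.649 did not pass (adjusted p = 0.219). Cnn2 held 71.4 ± 1.45% of the summed calponin FPKM in WT and 55.1 ± 1.83% in Fbxw7 KO (SD, n = 3), while the share of Cnn3 was 21.6 ± 3.08% and 38.9 ± 3.32%.

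None of the 3 transgelins, small calponin-like proteins, was called. Tagln (SM22 alpha) was at 851, 756 and 1661 CPM in WT, against 414, 453 and 782 CPM in Fbxw7 KO. Fbxw7 KO replicate 3 lay just above WT replicate 2, so the groups overlapped, and a log2 fold change of -0.99 ± 0.35 did not pass (adjusted p = 0.0981). Tagln2, the form found in most cell types, was at 193, 194 and 295 CPM in WT, against 245, 261 and 242 CPM in Fbxw7 KO (adjusted p = 0.635). Tagln was 80.7%, 77.3% and 83.4% of the transgelin FPKM in WT and 60.7%, 61.8% and 77.2% in Fbxw7 KO. Tagln3, a neuronal form, stayed below 0.6 CPM, with 3 Fbxw7 KO libraries above 3 WT libraries and an adjusted p of 0.0735.

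**Figure D3:**
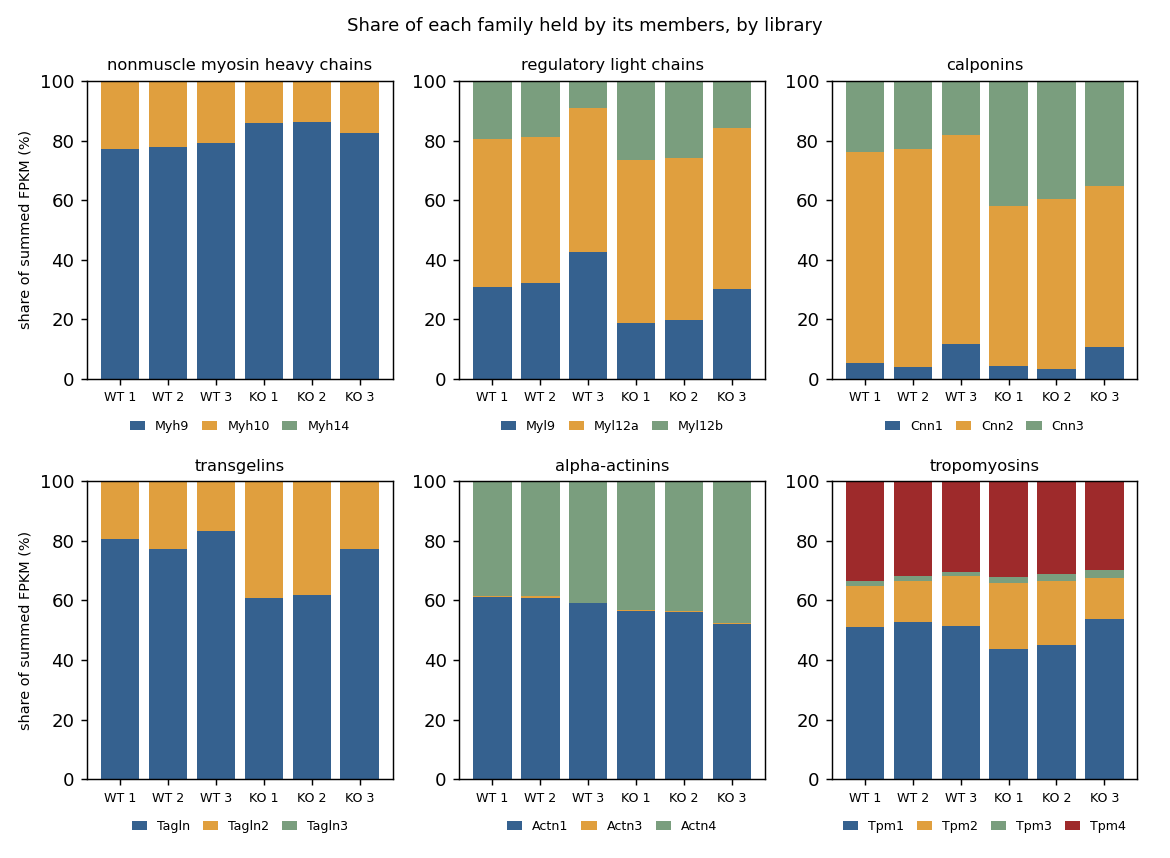
Share of the summed FPKM of 6 families held by each member, in percent on the y axis, for the 6 libraries on the x axis. The Cnn2 share is 70.2% to 73.0% in WT and 54.0% to 57.2% in Fbxw7 KO, and the Myh10 share is 20.7% to 22.8% in WT and 13.7% to 17.5% in Fbxw7 KO.

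No actin passed the test. Actb, cytoplasmic beta-actin, was at 1915, 2019.8 and 3379.9 CPM in WT, against 1887, 2033 and 1897 CPM in Fbxw7 KO. WT replicate 3 alone was high, and the other 5 libraries lay between 1887 and 2033 CPM. Acta2, smooth muscle alpha-actin, the marker of contractile fibroblasts, was at 1629, 1595 and 3368 CPM in WT, against 1023, 1074 and 2105 CPM in Fbxw7 KO. Replicate 3 was the highest library in both genotypes, the groups overlapped, and the log2 fold change of -0.65 ± 0.375 did not pass (adjusted p = 0.282). Actg2, smooth muscle gamma-actin, was at 14.1, 12.9 and 50.7 CPM in WT, against 22.1, 22.9 and 16.8 CPM in Fbxw7 KO. Its direction turned when WT replicate 3 was left out, from a log2 fold change of -0.33 to 0.61. Actg1, cytoplasmic gamma-actin, had 86.2 ± 25.5 CPM in WT, against 75.9 ± 16.8 CPM in Fbxw7 KO (SD, n = 3). Its 3 near-identical copies held 71.6% of the fragments of all 4 loci, so its level is uncertain, and its direction also turned without WT replicate 3. Actc1, cardiac actin, was at 0 in every library.

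Tropomyosins, the coiled coils that cover the filament, gave no call either. Tpm1 had 1212 ± 397 CPM in WT, against 847 ± 225 CPM in Fbxw7 KO, and Tpm4 had 941 ± 257 and 713 ± 74.0 CPM (SD, n = 3). Their log2 fold changes of -0.52 ± 0.26 and -0.40 ± 0.193 had adjusted p-values of 0.221 and 0.203. Tpm2 was at 178, 164 and 346 CPM in WT, against 232, 242 and 194 CPM in Fbxw7 KO. Its log2 fold change of -0.04 changed sign in 6 of 23 alternatives, which include 2 other scalings. The Tpm3 locus had 26.2 ± 3.18 and 29.7 ± 6 CPM, but 88.2% of the fragments of this locus and its near-identical copy lay in the copy, Tpm3-rs7, and with both added the levels were 226 ± 25.5 and 248 ± 18.2 CPM.

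Crosslinkers of the bundle came next. Actn1, a nonmuscle alpha-actinin of stress fibers and focal contacts (chr12:80167547-80260371), was at 966, 1006 and 1501 CPM in WT. In Fbxw7 KO it was at 727, 733 and 629.9 CPM, with all libraries below WT. The log2 fold change was -0.73 ± 0.183 (adjusted p = 0.033), and -0.43 without replicate 3 of both genotypes. Actn4, its close relative, was at 645, 670.2 and 1092 CPM in WT, against 545, 583 and 553 CPM in Fbxw7 KO, again without overlap, and did not pass (adjusted p = 0.124). Actn3, the fast muscle form, stayed below 9 CPM, with an adjusted p of 0.0967.

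Filamins are flexible crosslinkers. Flna had 2953 ± 728 CPM in WT, against 2413 ± 55.3 CPM in Fbxw7 KO (SD, n = 3). The authors' status marked its estimate as failed in WT replicates 1 and 3, so its WT level is uncertain. Flnc, the muscle filamin, had 494 ± 56.1 and 458 ± 52.5 CPM. Neither passed the test, with adjusted p-values of 0.301 for Flna and 0.623 for Flnc.

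At focal contacts, 2 of 3 adaptors were lower and talins were not called. Vcl, vinculin, which couples talin to actin (chr14:20929398-21033676), was at 551, 573 and 788 CPM in WT. It was at 319, 334 and 401 CPM in Fbxw7 KO, 55.1% of the WT mean. No library overlapped, and the log2 fold change was -0.86 ± 0.166 (adjusted p = 0.0131).

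Zyx, zyxin, a LIM protein recruited to strained actin (chr6:42349630-42360213), was at 235, 266 and 385 CPM in WT, against 198, 197 and 166 CPM in Fbxw7 KO. The groups did not overlap. Its log2 fold change of -0.66 ± 0.185 passed only narrowly (adjusted p = 0.049), and it lost the call in 11 of 23 alternatives. Pxn, paxillin, a scaffold of nascent contacts, was at 53.0, 57.3 and 68.2 CPM in WT, against 78.1, 81.4 and 67.1 CPM in Fbxw7 KO. Its log2 fold change of 0.34 ± 0.125 did not pass (adjusted p = 0.103). Tln1 had 669 ± 101 CPM in WT, against 570.3 ± 79.8 CPM in Fbxw7 KO, and Tln2 had 158 ± 10.4 and 128 ± 32.7 CPM (SD, n = 3), with adjusted p-values of 0.349 and 0.298.

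The libraries within a genotype told the members apart as well. WT replicate 3 was above WT replicates 1 and 2 for 32 of 39 tested members, against 38.1% of all tested loci. Fbxw7 KO replicate 3 was above its group for 20 of 39, against 42.5% of all tested loci. Of the 33 loci of at least 10 CPM, 15 were at least 1.5 times the mean of replicates 1 and 2 in WT replicate 3. In Fbxw7 KO replicate 3 there were 5 such loci, Acta2, Tagln, Myl9, Cnn1 and Tpm1, and all 5 were also among the 15. Acta2, Tagln, Myl9 and Cnn1 are smooth muscle-type members of the stress fiber, but other such members did not reach 1.5 times in both genotypes. The ratios in WT and Fbxw7 KO were 1.02 and 0.926 for Smtn, 1.89 and 1.26 for Lmod1, and 3.75 and 0.748 for Actg2. Outside the members and the smooth muscle markers, Anln rose in both, with ratios of 2.46 and 2.47.

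These 5 genes were then compared between libraries of the same number. For Tagln, Fbxw7 KO replicates 1 and 2 held 54.0% of the mean of WT replicates 1 and 2, and Fbxw7 KO replicate 3 held 47.1% of WT replicate 3. The same pair of values was 65.0% and 62.5% for Acta2, 45.4% and 52.4% for Myl9, 46.1% and 38.0% for Cnn1, and 73.1% and 66.2% for Tpm1. All 5 stood lower in Fbxw7 KO at either level, although none of them passed the test over all 6 libraries. With replicate 3 of both genotypes left out, where 20.6% of all loci were lower, each of the 5 was called lower. They had been picked by the values of the libraries left out, so this is a description. The labels do not say that libraries of the same number belong together, so these percentages describe single libraries.

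Other members gave different values at each level. Actb stood at 99.6% in replicates 1 and 2 and at 56.1% in replicate 3. Tpm2 was at 139% and 56.2%, Actg2 at 166% and 33.2%, and Tagln2 at 131% and 82.2%. For these genes the sign of the difference depended on the libraries compared, apart from Actb, which was level in the first comparison. Myh10 (51.7% and 45.1%), Cnn2 (45.4% and 39.1%), Vcl (58.1% and 50.9%), Cald1 (69.1% and 61.3%) and Smtn (68.0% and 61.6%) stood at similar values in both.

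**Figure D4:**
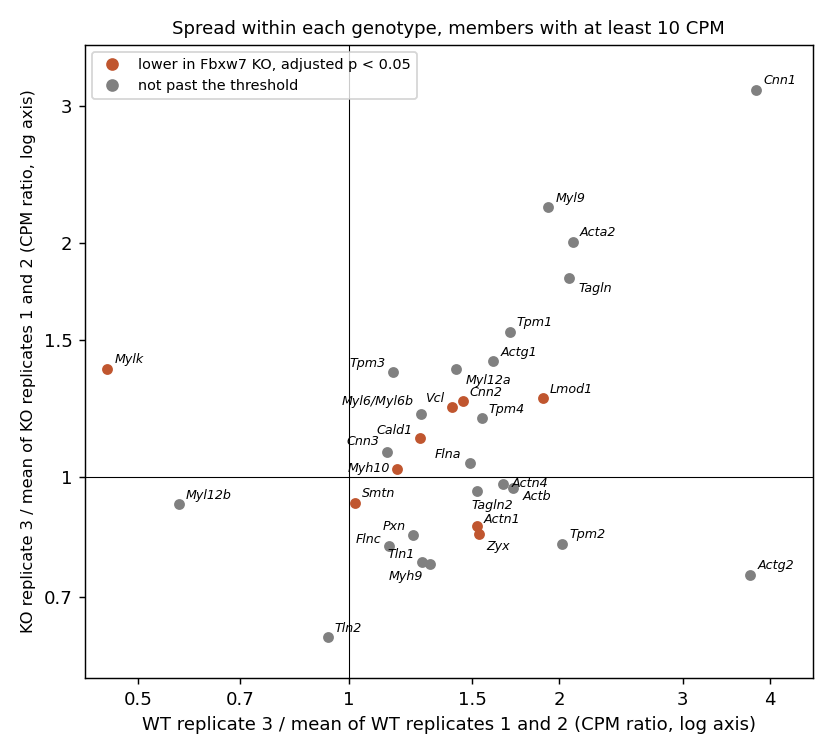
Ratio of replicate 3 to the mean of replicates 1 and 2, in WT on the x axis and in Fbxw7 KO on the y axis (log axes), for 32 member loci of at least 10 CPM. Cnn1, Myl9, Acta2, Tagln and Tpm1 lie high on both axes, while Actg2 and Tpm2 are high in WT only, at 3.75 and 2.02 against 0.748 and 0.819 in Fbxw7 KO.

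**Figure D5:**
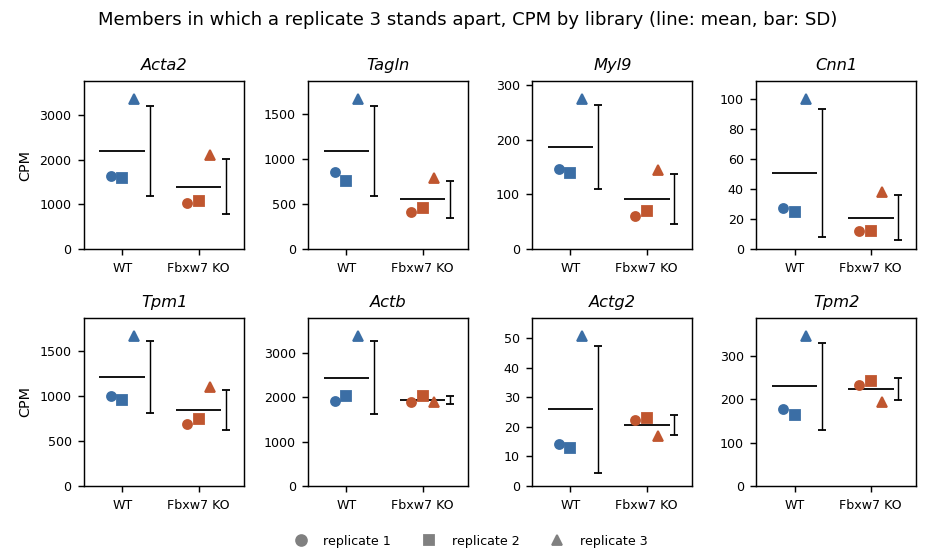
CPM by library for 8 members in which a replicate 3 stood apart, with the mean as a line and the SD as a bar. In Acta2, Tagln, Myl9, Cnn1 and Tpm1 replicate 3 is the highest library of both genotypes, and in Actb, Actg2 and Tpm2 of WT only.

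Levels of different genes were ordered on the FPKM scale. In WT the most abundant members were Actb with 1718 ± 569 FPKM, Acta2 with 1322 ± 629, Cald1 with 1052 ± 181, Tagln with 805 ± 385 and Tpm1 with 751 ± 244 (SD, n = 3). In Fbxw7 KO they were Actb with 1235 ± 211 FPKM, Acta2 with 808 ± 341, Cald1 with 623 ± 33.7, Tpm1 with 522 ± 130.3 and Tagln with 418 ± 184. Neighbours in the WT order differed by less than the larger of their SDs. So did those in Fbxw7 KO, apart from Actb and Acta2, whose libraries overlapped. All members together took 2.089%, 2.104% and 3.193% of the estimated fragments in WT and 1.749%, 1.791% and 2.028% in Fbxw7 KO, so the highest Fbxw7 KO library lay just below the lowest WT library.

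Partner genes of the pathway were counted in 6 lists, and 5 of the lists are described below. The lists share some genes, such as Fhl2, Tgfb1i1 and Myo1e, each of which was lower. A shared gene is counted in each of its lists but a single time in the total, so the lists do not add up to it. Of 125 tested partners, 27 were lower and 4 higher, against 8.08% and 8.03% of all tested loci, with a median log2 fold change of -0.28. The counts were 9 and 2 when Fbxw7 KO replicate 1 was left out, where 3.27% of all loci were lower. They were 58 and 16 without replicate 3 of both genotypes, where 20.6% of all loci were lower and 20.7% higher. Summing replicates 1 and 2 gave 2 and 1, where 1.13% of all loci were lower, and counts as small as these are no result about the partners. The counts of each list below are from all 6 libraries and stand beside the shares of 8.08% lower and 8.03% higher.

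Of 12 tested SRF and MRTF factors and regulators, 1 was lower and 0 higher, with a median of -0.29. A count of 1 in 12 is close to the share of all loci, 8.08%, and is no result about this list. This was Fhl2, a LIM-only cofactor of SRF, at 152 ± 20.8 CPM in WT, against 102 ± 4.69 CPM in Fbxw7 KO (adjusted p = 0.0139). Srf itself was at 58.5 ± 21.3 and 51.7 ± 5.32 CPM (adjusted p = 0.646).

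Of 20 tested SRF and MRTF target genes outside the members, 6 were lower and 2 higher, with a median of -0.43. Fos and Egr1, immediate early genes driven by SRF with ternary complex factors, were the higher ones. Fos was at 2.47, 3.52 and 4.64 CPM in WT, against 8.94, 16.0 and 11.6 CPM in Fbxw7 KO (log2 fold change 1.78 ± 0.289, adjusted p = 0.00661). Egr1 was at 23.6, 44.3 and 65.3 CPM in WT, against 104, 165 and 169 CPM in Fbxw7 KO. The actin-binding genes Synpo2 and Lima1 were lower, with log2 fold changes of -1.10 and -0.59. Egr1 was named after its values were seen, as 1 of only 2 higher genes in its list.

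Among 36 other focal contact and integrin linker genes, 8 were lower and 1 higher, the median being -0.25. Parvb, a partner of integrin-linked kinase, was at 10.9, 9.82 and 12.2 CPM in WT, against 2.13, 2.37 and 1.09 CPM in Fbxw7 KO (log2 fold change -2.56 ± 0.283, adjusted p = 0.00146). The LIM proteins Lasp1 and Pdlim2 and the zyxin relative Lpp were lower by similar factors, with log2 fold changes of -0.77, -0.92 and -0.95. Enah, an Ena/VASP elongation factor, was higher at 307 ± 21.5 against 225 ± 6.05 CPM but lay outside the 4 smallest p-values and is named because it was the only one in its direction.

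Of 21 tested actin monomer, severing and end-binding genes, 4 were lower and 0 higher, with a median of -0.33. Gsn, gelsolin, which severs and caps filaments, was at 1297, 1369 and 1563 CPM in WT, against 834, 928 and 798 CPM in Fbxw7 KO (log2 fold change -0.72 ± 0.12, adjusted p = 0.00709). Cap1 and Cap2, which recycle actin monomers, and Capg, a capping protein, had log2 fold changes of -0.46, -1.12 and -0.51.

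Of 20 tested other myosins and thin filament genes, 6 were lower and 0 higher, with a median of -0.33. Ablim1, an actin-binding LIM protein, was at 121, 126 and 116 CPM in WT, against 50.8, 53 and 55 CPM in Fbxw7 KO (log2 fold change -1.19 ± 0.0847, adjusted p = 0.000261). The membrane-bound class I myosins Myo1c and Myo1e were lower with log2 fold changes of -0.68 and -0.70, and Mylk3, the cardiac light chain kinase, was lower at a level under 5 CPM.

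Some markers of fibroblasts and of other cell types also differed between the genotypes. Of 12 fibroblast markers, Vim and S100a4 were lower and Dcn and Lum higher, and the summed level of the list was 30532 to 40645 CPM in WT, against 32268 to 38957 CPM in Fbxw7 KO. Of 7 endothelial markers 2 were tested and both, Kdr and Tek, were lower, with a summed level of 6.62 to 9.33 CPM in WT, against 0.802 to 1.56 CPM in Fbxw7 KO. Of 7 pericyte markers 4 were tested, and 1, Rgs5, was lower (log2 fold change -1.60, adjusted p = 0.0319). The summed level of that list was 119 to 164 CPM in WT and 159 to 162 CPM in Fbxw7 KO. Of 8 macrophage and blood markers 3 were tested, and 1, Cd68, was lower (log2 fold change -1.40, adjusted p = 0.0299), with a summed level of 6.08 to 6.997 CPM in WT and 7.23 to 8.43 CPM in Fbxw7 KO. Each of these marker counts stands beside 8.08% of all tested loci lower and 8.03% higher. The part of these markers in the contractile differences was not tested.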

How the data were processed

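RNA from 3 WT and 3 Fbxw7 KO libraries of mouse embryonic fibroblasts was sequenced with the Illumina TruSeq protocol, per the labels' protocols. Per the submitters' processing notes, Cufflinks 2.2.1, TopHat2 2.1.1, SAMtools 1.5 and deepTools were used on mm10. No source used here gives the annotation or says whether counting used strand, so antisense overlap cannot be told apart. The authors deposited estimated counts, which are expected fragments at each locus, beside status words, and FPKM in another table, per the file headers. Among estimated counts up to 1000, 88.8% to 89.4% were whole multiples of 1 step per library (tolerance 0.05), and dividing by that step gave totals of 51152381 to 70625716 fragments. Loci without a gene name (1317) and the 9 named loci marked HIDATA were left out of the tests, and the 55 marked FAIL were kept.

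Expected counts were rounded to whole numbers. The fragments of Myh1, Myh2, Myh14 and Myl2 and the floor of 3 fragments are such rounded values, after the authors' scaling per library. The two-sided quasi-likelihood F test of edgeR 4.0.16 (R 4.3.3) was fitted with genotype alone after filterByExpr and TMM, with robust dispersions. P-values were adjusted by Benjamini-Hochberg across the 16787 loci tested. The SE of a log2 fold change is its size divided by the square root of F. The test was tried on simulated data. Alternatives used limma 3.58.1, DESeq2 1.42.0, other scalings and filters, the replicate number as a block, libraries left out, and replicates 1 and 2 summed. Summing near copies, found with BLAST 2.17.0 (at least 95% identity over 80% and 200 bases), was chosen after seeing the data. Gene positions came from GENCODE on mm10 and promoters from RefSeq. Figures were drawn with matplotlib 3.10.9.

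Members, partner lists and marker lists were chosen with earlier results of these data known. Every member with a mean of at least 10 CPM was named, lower ones only where they passed, and up to 4 partners per list by adjusted p. Others are said to be named after their values were seen. For 1 member and 1 partner list, the values are not reported here, though the counts over all members and partners include them. Precision is that of 3 libraries a genotype at 55720129 to 64198455 fragments, and counting floors (3 fragments over a group) cover counting error only.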

Additional observations from a re-analysis of the deposited data

How the results depend on the processing

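The count of tested loci past the threshold was 2705, and it was 1562, 1615 and 1182 with limma on log2(FPKM + 1), on log2(FPKM + 0.1) and without its filter. It was 6993 without replicate 3 of both genotypes, 484 with replicates 1 and 2 summed, and 1169 to 3282 when each library was left out in turn. Members called lower numbered 12, 23 without replicate 3 of both genotypes, 3 with replicates 1 and 2 summed (Myh1, Myh2 and Myh10) and 5 to 13 when each library was left out. Each of these counts includes Myh1 and Myh2, which entered the test through WT alone. Members called higher numbered 0, 1 with library size only (Pxn), 1 with limma without its filter (Myl10), 5 without replicate 3 of both genotypes and 0 to 4 when each library was left out. Myl10 was at 0 in each WT library and at 0.051, 0.067 and 0.034 CPM in Fbxw7 KO. It entered only as the filter was removed, through Fbxw7 KO alone and near the floor. Lower partners numbered 27, 13 with limma without its filter, 58 without replicate 3, 2 with replicates summed and 9 to 35 leaving out each library. Higher partners numbered 4, 2 without the count filter, 2 with limma without its filter, 16 without replicate 3, 1 with replicates summed and 1 to 7 leaving out each library. Of all tested loci, 8.03% were higher, and 20.7% without replicate 3 of both genotypes. Partner counts in settings without such a share are not read as results about the partners. The cause of these shifts was not tested. Fewer libraries entered the test where some were summed or left out, and the calls over all loci rose in some of these settings and fell in others.

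Some uncalled log2 fold changes changed sign. When each library was left out in turn they ranged from -0.37 to 0.082 for Actg1, from -0.074 to 0.30 for Myl12b, from -0.23 to 0.38 for Tpm2 and from -0.66 to 0.61 for Actg2, each crossing 0 without WT replicate 3. Without replicate 3 of both genotypes they were -0.034 for Myl12b, 0.47 for Tpm2, 0.0074 for Tln1, 0.050 for Flnc and 0.73 for Actg2. With library size only, which moved the median of all genes to 0.105, they were 0.031 for Cnn3 and 0.052 for Tpm2. Tpm2 was also at 0.0012 with upper-quartile factors, at 0.044 with the replicate block and at 0.040 without Fbxw7 KO replicate 3.

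Libraries of the same number deviated together with correlations of 0.06, 0.21 and 0.11 over genes, so the numbers were not taken as pairs. With the replicate block 14 members were lower, of which 8, Myh1 and Myh2 among them, were shared with the 12. Actn1, Myl4, Mylk and Zyx were lost, and Acta2, Cnn1, Myl6, Myl9, Tagln and Tpm1 were added. The whole table then had 2356 calls in either direction among 16787 tested loci. Replicates 2 and 3 correlated best with their own number in the other genotype, and replicates 1 did not. Counts of near-copy loci summed with their gene, loci marked FAIL left out, sex chromosomes left out, shared loci left out and fragments before the authors' scaling each gave 12 lower and 0 higher members.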

Other observations

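The 11 members with fragments but too few to be tested stayed at or below 0.278 CPM in every library. In rounded estimated fragments, after the authors' scaling, Myh14 had 3, 9 and 17 in the WT libraries and 0 in each Fbxw7 KO library. Myl2 had 9, 3 and 1 in WT and 0 in Fbxw7 KO. Against a floor of 3 fragments over the Fbxw7 KO group, Myh14 was at least 9.42-fold lower and Myl2 at least 4.22-fold lower, with no test.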
